A study of Mus musculus with 6 samples.

Results

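The transcriptome of the normal mouse lens at embryonic stage E15.5 was described from the 3 wild-type libraries of a series of 6 RNA sequencing libraries. The wild-type lenses came from C57Bl/6 mice (C57Bl/6 <har> in the design text), and each library was made from 75 pooled lenses. The records of these 3 libraries repeat samples of an earlier series. The other 3 libraries, from lenses with a conditional knockout of β1-integrin, were not used here. The 3 wild-type libraries are numbered as pools 1 to 3, and the labels name them biological replicates. Each lens was taken whole per the labels, so its epithelial and fiber cells are mixed in every value, and for a cell type marker fewer cells and less RNA per cell cannot be told apart. The files list 41128 features, of which 17363 had at least 1 read in a pool. The pools held 11531139, 11407157 and 10023049 counted reads, so that 1 read was worth 0.0867, 0.0877 and 0.0998 CPM, the count scaled to a fixed library total. Nothing in the labels says how the pools were split among animals or litters, so the spread between them may be partly technical. RPKM, which divides CPM by gene length in kilobases, is the scale used wherever genes are compared with each other. No groups were compared and no test was made: errors are the SD over the 3 pools, and CV is that SD of the CPM values as a percentage of their mean.

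A single layer of epithelial cells covers the front face of the lens and keeps dividing, and at its equator these cells stop dividing, elongate and become fiber cells. Fiber cells fill themselves with crystallins, the soluble proteins that give the lens its refractive power, and later clear away their nuclei and organelles. A thick basement membrane, the lens capsule, surrounds the whole organ, and the fetal lens is wrapped in a temporary net of vessels. Transcription factors such as PAX6, PROX1, MAF and SOX proteins act on crystallin promoters.

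The 6 marker genes of lens identity were all found. Cryaa (ENSMUSG00000024041; GRCm38 chromosome 17, 31677807 to 31681733, plus strand), which encodes the chaperone αA-crystallin, stood at 120589, 121267 and 112532 RPKM in pools 1, 2 and 3 and ranked 1. Crybb1 (ENSMUSG00000029343; chromosome 5, 112255815 to 112269585, plus strand), a β-crystallin of fiber cells, ranked 2 with 36836 ± 2009 RPKM (SD, n = 3). Mip (ENSMUSG00000025389; chromosome 10, 128225838 to 128231812, plus strand), the water channel aquaporin-0 of fiber membranes, ranked 16 with 2101 ± 67.0 RPKM. Bfsp1 (ENSMUSG00000027420; chromosome 2, 143826528 to 143863173, minus strand), which encodes the beaded filament protein filensin, ranked 17 with 2039 ± 82.3 RPKM. These 4 genes thus lay among the 30 highest features. Both regulators in the set were far lower: Prox1 (ENSMUSG00000010175; chromosome 1, 190118035 to 190170714, minus strand) ranked 207 with 135 ± 9.77 RPKM, and Pax6 (ENSMUSG00000027168; chromosome 2, 105668900 to 105697364, plus strand) ranked 1727 with 23.0 ± 1.23 RPKM. The CV of the 6 markers ran from 3.2% for Mip to 7.3% for Prox1.

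The promoters of the highest genes are shown first because the crystallins take the top of the ranking together and are known targets of MAF family factors. Promoter windows were taken from RefSeq (GRCm38.p6) and span 250 bases before and 50 bases after each annotated start. Of the 50 named protein-coding genes of the nuclear genome with the highest mean RPKM, 37 had a window. The 200 bases before the start are printed for 6 of them, 5′ to 3′ on the gene's own strand, with the MAF half-site TGCTGA and the TATA word TATAAA in capitals wherever a search of both strands found them. Cryaa lies at chr17:31677731-31677930 (plus), Crybb1 at chr5:112255620-112255819 (plus), Cryba4 at chr5:112252519-112252718 (minus), Cryba1 at chr11:77725294-77725493 (minus), Mip at chr10:128225610-128225809 (plus) and Crygd at chr1:65063441-65063640 (minus).
Cryaa: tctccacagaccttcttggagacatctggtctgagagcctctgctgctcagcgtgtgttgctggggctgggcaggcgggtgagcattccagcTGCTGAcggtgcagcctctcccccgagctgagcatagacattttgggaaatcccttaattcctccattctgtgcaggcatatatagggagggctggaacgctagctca
Crybb1: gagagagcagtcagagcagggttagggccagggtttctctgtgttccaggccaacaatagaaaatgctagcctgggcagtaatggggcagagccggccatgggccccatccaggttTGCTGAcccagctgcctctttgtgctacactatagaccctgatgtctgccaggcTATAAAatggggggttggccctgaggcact
Cryba4: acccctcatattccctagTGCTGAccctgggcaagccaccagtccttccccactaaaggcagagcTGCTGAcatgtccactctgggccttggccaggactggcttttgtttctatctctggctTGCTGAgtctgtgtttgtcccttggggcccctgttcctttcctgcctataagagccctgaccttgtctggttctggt
Cryba1: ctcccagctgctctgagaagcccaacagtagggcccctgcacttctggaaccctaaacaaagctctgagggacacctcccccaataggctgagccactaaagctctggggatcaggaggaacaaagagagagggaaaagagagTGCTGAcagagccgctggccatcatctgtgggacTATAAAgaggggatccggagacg
Mip: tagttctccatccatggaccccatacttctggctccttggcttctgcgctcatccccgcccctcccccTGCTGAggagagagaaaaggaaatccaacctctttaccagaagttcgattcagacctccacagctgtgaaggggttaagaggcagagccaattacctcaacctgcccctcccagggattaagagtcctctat
Crygd: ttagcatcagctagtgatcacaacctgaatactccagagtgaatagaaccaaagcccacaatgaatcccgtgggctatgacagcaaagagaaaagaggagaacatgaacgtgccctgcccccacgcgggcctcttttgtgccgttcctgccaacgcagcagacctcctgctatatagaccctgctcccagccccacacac
The first base of the MAF word lies 108 bases before the start in Cryaa, 84 in Crybb1, 57 in Cryba1 and 132 in Mip. Cryba4 holds 3 copies, at 182, 135 and 77 bases, and Crygd, with 11666 ± 941 RPKM, holds none. The TATA word begins 30 bases before the start in Crybb1 and 23 in Cryba1.

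Among the 14 crystallin genes with a window, 10 held TGCTGA on either strand: Cryaa, Cryba1, Cryba2, Cryba4, Crybb1, Crybb3, Cryga, Crygc, Crygn and Crygs. The 4 without it were Crygb, Crygd, Cryge and Crygf. Of the other 23 leading genes, some of which have several windows, 7 held the word in at least 1 window. Counted by window, its share was 40% of the 45 windows of the 37 leading genes and 19.5% of all 32851 windows. TATAAA was found in 4 of the 14 crystallin genes and in 13.6% of all windows, and the SOX core ACAAAG in 5 of the 14 and in 18.7% of all windows. In the Cryba1 window and in the Crybb1 window the TATA word, the MAF word and the SOX word occur together. Cryba1 holds 2 copies of the SOX word and Crybb1 holds 1, on the opposite strand. A match describes these letters in this window and no binding was measured; the annotated starts also vary, and the RefSeq start of Cryaa lies 124 bases from the start of its GENCODE gene model.

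The ranking was very steep. By mean RPKM, 10051 features reached 1 RPKM, 3798 reached 10, 316 reached 100 and 27 reached 1000, while 11789 of the 29151 features with an RPKM value were at 0 in every pool. The counts differed little between pools: 10035, 10061 and 10072 features reached 1 RPKM in pools 1, 2 and 3. The median was 0.0540 RPKM over all features with a value and 0.575 RPKM over 21224 protein-coding genes, of which 9788 (46.1%) reached 1 RPKM. The 27 features at 1000 RPKM or more took 37.3% of all reads and 63.5% of the summed RPKM. Cryaa alone took 14.01% ± 0.58 of reads, the first 10 features 31.4% ± 1.502 and the first 100 features 46.4% ± 1.33 (SD, n = 3). The most abundant 165 features together made up 50% of the reads, and 8 features made up 50% of the summed RPKM. The plot of mean RPKM by rank shows the crystallins at its head and the steep drop of the features with few reads at its end.

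**Figure D1:**
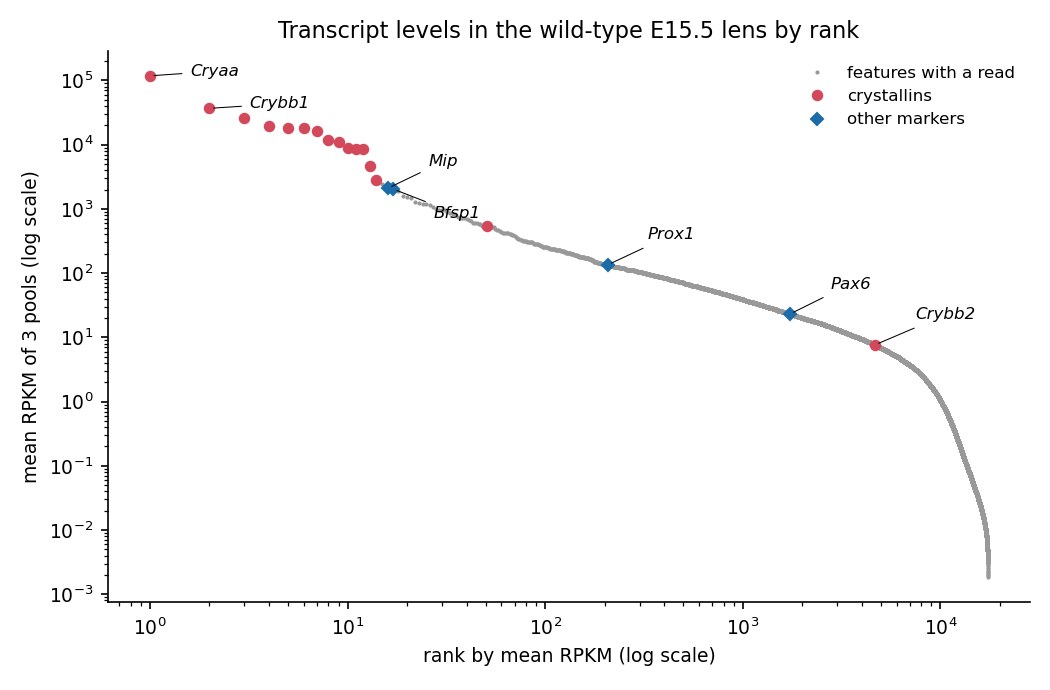
Mean RPKM of the 3 wild-type pools (vertical, log scale) against rank (horizontal, log scale) for every feature with a read and an RPKM value. Crystallins (red circles) fill the first 14 ranks, Mip and Bfsp1 (blue diamonds) follow at ranks 16 and 17, Prox1 and Pax6 lie at ranks 207 and 1727, and Crybb2 at rank 4656.

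The α, β and γ crystallins took 34.8%, 34.2% and 31.6% of reads in pools 1, 2 and 3, a mean of 33.5% ± 1.69. On the RPKM scale their share was 59.7% of the summed RPKM. All 16 genes had reads, 15 lay above 100 RPKM, and 14 filled the first 14 ranks. The 2 α genes took 14.3% ± 0.62 of reads, the 6 β genes 11.7% ± 0.67 and the 8 γ genes 7.47% ± 0.59. Pool 3 had the lowest share of each of these subfamilies, and 15 of the 16 genes were lowest there, Crybb3 being the exception. Of all features at 10 CPM or more, 26.6% were lowest in pool 3.

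Among the β crystallins, Crybb3 had 18220 ± 979 RPKM, Cryba4 16604 ± 1171, Cryba1 8781 ± 834 and Cryba2 8550 ± 665, each a component of the β oligomers of the lens. Crybb2, which encodes the main β-crystallin of the older lens, had 5.95, 11.6 and 5.36 RPKM. Pool 2 was the high pool for Crybb2, and its CV of 45.1% was the widest of any crystallin. Crybb2 rests on 138, 266 and 108 reads and ranked 4656, whereas its neighbour on chromosome 5, Crybb3, ranked 6. The genes of the γA to γF crystallins, which are dense in the lens core, all lie on chromosome 1. They were Cryga (26212 ± 1828 RPKM), Cryge (19610 ± 1329), Crygb (18272 ± 1814), Crygd (11666 ± 941), Crygf (10976 ± 895) and Crygc (8576 ± 860). Crygn had 4693 ± 448 RPKM. Crygs, the γ-crystallin that builds up after birth, had 494, 652 and 468 RPKM and ranked 51.

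The second α gene, Cryab, which encodes a small heat shock protein that is made in many tissues, had 2935, 3143 and 2436 RPKM, far below Cryaa. The order of the crystallins was partly within the spread. Of the 30 neighbour pairs that start at ranks 1 to 30, 21 had pools that overlapped. Cryaa, Crybb1 and Cryga each stood clear of the next gene in every pool. Crygb and Crybb3 changed places: Crygb was above Crybb3 in 1 pool of 3 while its mean was higher. The γ genes are close copies, and the share of their 50-base words that occur in transcripts of other genes was 20.6% for Crygc, 22.2% for Crygd, 27.5% for Crygb, 33.3% for Crygf, 47.6% for Cryga and 55.4% for Cryge. For Crybb1, Crybb3, Cryba1, Cryba2 and Cryba4 it was 0%. How reads that match several genes were treated is not given, so the split between these 6 genes is uncertain. Cryba1 lies within the body of Nufip2, on the opposite strand and with no exon bases shared, in libraries made without strand information. Nufip2 itself had 12.6 RPKM.

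**Figure D2:**
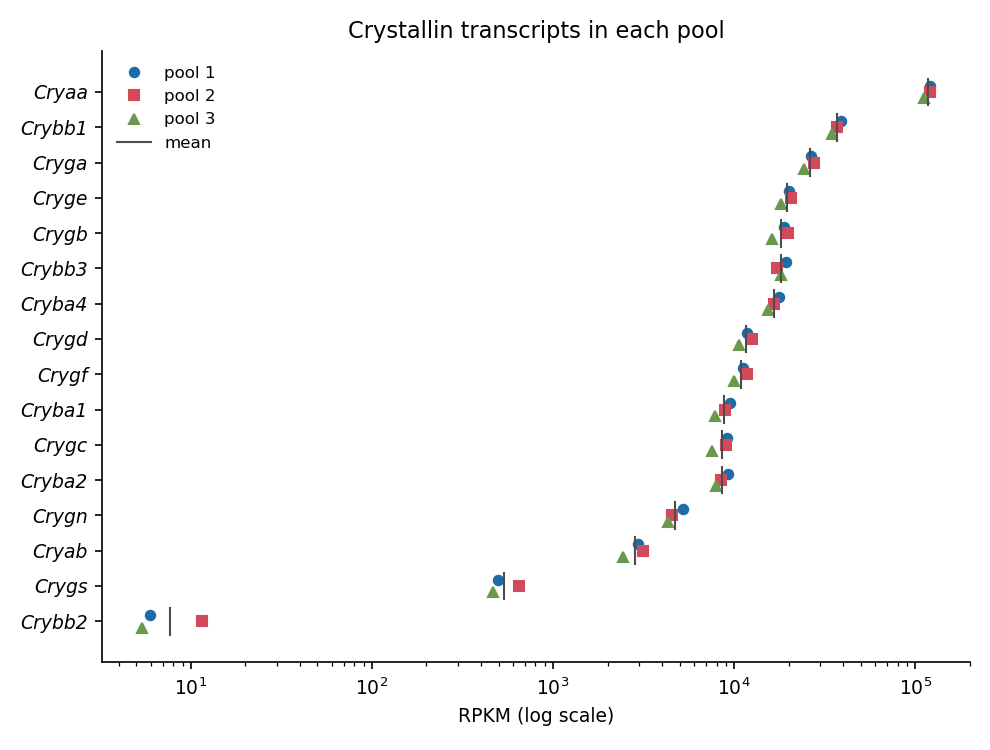
RPKM (horizontal, log scale) of the 16 α, β and γ crystallin genes in pool 1 (blue circles), pool 2 (red squares) and pool 3 (green triangles), with the mean as a vertical line. Levels run from 118130 RPKM for Cryaa to 7.63 RPKM for Crybb2, and Crygs and Crybb2 have their highest value in pool 2.

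Several genes of the fiber cell's frame and membrane were also high. The filament list had 8 of 10 members at 1 RPKM or more and a median of 29.5 RPKM. It was led by Bfsp1, by Vim (992 ± 47.1 RPKM), the vimentin of both lens cell forms, and by Bfsp2 (413, 404 and 334 RPKM), which encodes phakinin, the partner of filensin. Synm (70.4 RPKM) and Lmnb1 (40.7) followed, and Gfap and Des stood at 0.474 and 0.298 RPKM. Bfsp1, Vim and Bfsp2 lay at ranks 17, 28 and 70.

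Gja3, which encodes a connexin of fiber gap junctions, had 500, 549 and 579 RPKM. The glucose transporter Slc2a1 had 167 ± 16.5 RPKM, N-cadherin (Cdh2) 64.7 ± 7.78, and Lctl, which encodes γ-klotho, 18.7 ± 2.72. Mip meets an antisense gene: 57.04% of its exon bases lie in exons of Gm26847, which was listed at 169 ± 11.8 RPKM, so this part of Mip was counted without knowledge of strand. The lens membrane protein gene Lim2 was listed as 2 separate features, of which Lim2_2 had 436, 430 and 373 RPKM and Lim2_1 had 2 reads.

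In the spectrin and actin list, 28 of 29 members reached 1 RPKM and 9 reached 100. Tuba1a (583 ± 46.1 RPKM), Actb (532 ± 12.8), Ezr (302 ± 10.4) and Sptan1 (215 ± 11.6) were among its highest, the last of them an α-spectrin of the membrane skeleton, and neuronal Tubb3 was lowest at 0.129 RPKM. The calcium-dependent protease gene Capn3 had 1319, 1243 and 1280 RPKM and ranked 22 by RPKM and 13 by CPM. Of the genes tied to late fiber change, Grifin, a galectin relative of the lens, had 426 ± 8.04 RPKM. Caprin2 had 212 ± 8.99 RPKM. Dnase2b, the nuclease that removes fiber nuclei, was present at 22.2, 28.1 and 19.6 RPKM. Lgsn, a lens-specific relative of glutamine synthetase, was listed at 0.0645 RPKM, and it lies wholly inside another annotated gene on the opposite strand.

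Regulators of the lens lineage lay far below the leading crystallins. Of 35 listed members, 26 reached 1 RPKM, 13 reached 10 and 6 reached 100, with a median of 5.83 RPKM. Tdrd7, an RNA granule component whose loss causes cataract, was highest at 515 ± 12.3 RPKM. Foxe3, the forkhead factor of the lens epithelium, had 178, 147 and 208 RPKM, the widest spread (CV 17.2%) of the 6 members above 100 RPKM. Prox1 had 123, 139 and 141 RPKM. Hsf4, the heat shock factor of fiber maturation, had 138, 130 and 131 RPKM and Maf 120, 132 and 123 RPKM. Prox1, Hsf4 and Maf overlapped in their pool values, so their order is within the spread, and Foxe3 lay above all 3 in every pool.

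Further down, Mafg had 62.6 ± 2.83 RPKM and Pitx3 62.6 ± 6.76, the homeobox gene that is mutated in aphakia mice. Six3 had 28.8 ± 1.49 RPKM, Cited2 24.9 ± 1.86, Pax6 24.4, 22.6 and 22.0 in pools 1, 2 and 3, and Tfap2a 11.2 ± 2.32. Gata3, which is needed for cell cycle exit in lens fibers, had 9.38 RPKM. Sox11 had 2.03 RPKM. Sox1, Sox2, Mab21l1 and Mab21l2 were listed at 0 in every pool.

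**Figure D3:**
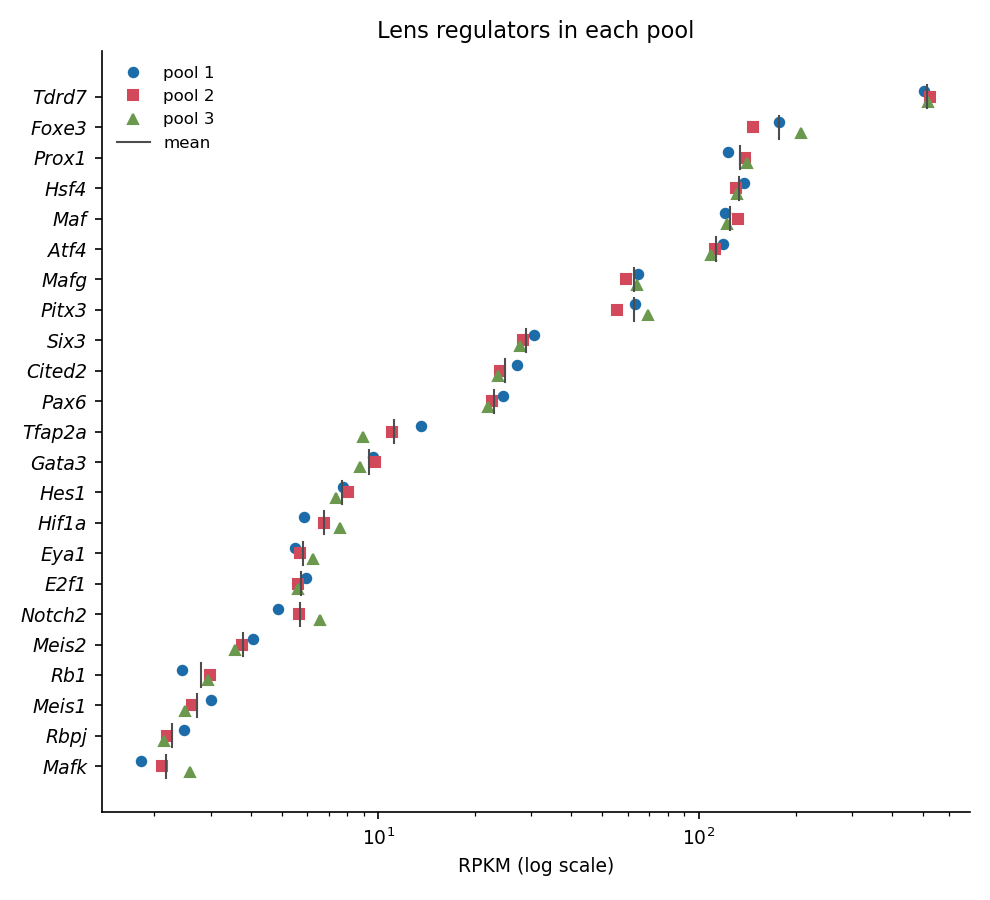
RPKM (horizontal, log scale) of 23 of the highest genes of the lens regulator list in pools 1 to 3 (blue circles, red squares, green triangles), with the mean as a vertical line. Prox1, Hsf4 and Maf overlap between 120 and 141 RPKM, Foxe3 lies above them at 147 to 208, and Pax6 lies near 23.0 RPKM with little spread.

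The 4 regulators at 0 are known in lens development. All 4 lie wholly inside the body of another gene: Sox1 in Sox1ot, Sox2 in Sox2ot, Mab21l1 in Nbea and Mab21l2 in Lrba. The exons of Cryba1 (8781 RPKM) and Bfsp2 (384 RPKM) also lie 100% inside another gene's body. These genes differ in how far their exons meet exons of the host. Of the exon bases, 39.4% lie in host exons for Mab21l1 and 36.0% for Mab21l2. For Sox1, Sox2 and Cryba1 the share was 0%, and it is not given here for Bfsp2. The host Sox2ot had 14.7, 14.1 and 14.3 RPKM, Nbea 9.31 RPKM and Lrba 2.45 RPKM. Over all protein-coding genes, 58.8% of the 1084 that lie over 99% inside another gene's body had no read, against 30.6% of the 15122 that meet no other gene. The classes between did not rise in steps: it was 8.23% of the 4242 genes with up to 50% inside and 19.6% of the 776 with 50% to 99%. Genes with 1 exon block had no read in 703 of 1171 cases, against 20.2% of 18722 with 2 or more, with the chemosensory receptors left out of both. Of 657 protein-coding genes that share over 90% of their 50-base words with other transcripts, 90.9% had no read, against 24.2% of 9027 that share none. For the 7363 that share up to 10% it was 18.0%. Among genes used by every cell, Rps12, Rps27 and Ube2l3 were listed at 0. A listed 0 is therefore not read here as absence of the transcript, and the part that overlap, exon number or shared sequence has in these zeros was not tested.

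Genes of the lens epithelium were high in these whole-lens pools. Of 24 listed members, 21 reached 1 RPKM and 7 reached 100. Sfrp1, a secreted Wnt inhibitor, had 398 ± 29.5 RPKM and Dkk3, a divergent member of the Dickkopf family, 344 ± 37.7. E-cadherin (Cdh1), which marks the epithelium, had 46.7, 47.4 and 50.3 RPKM. The connexin gene Gja1 had 25.8, 36.0 and 23.4 RPKM, far below Gja3, with pool 2 highest. Wfdc1 had 0, 30 and 1 reads in pools 1, 2 and 3, so its level rests on a single pool.

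The capsule was represented by type IV collagen, nidogen, perlecan and laminin genes. Of the 30 listed members, 23 reached 1 RPKM. Sparc, a matrix protein that binds type IV collagen, had 446 ± 8.59 RPKM, and Nid1 380, 426 and 468 RPKM. Col4a2 had 272, 303 and 345 RPKM and Col4a1 236, 281 and 334, a pair of chains that form 1 trimer. Col4a5 (76.2 RPKM) and Col4a6 (47.8), which form another trimer, were lower, and Col4a3 and Col4a4, which join the Col4a5 chain in the third, stood at 0.0896 and 0.111. Perlecan (Hspg2) had 66.2, 83.3 and 114 RPKM. Lamc1 (43.4 RPKM), Lamb1 (41.6) and Lama1 (39.1), the chains of laminin-111, lay close to each other. Collagens as a family took 0.450%, 0.521% and 0.593% of reads in pools 1, 2 and 3. The capsule genes varied more than most. The median CV was 15.52% for the 24 list members at 10 CPM or more, against 7.06% for all such features. Of the full list 23 of 30 were highest in pool 3, against 41.2% of all features with a read. Of the 24 members at 10 CPM or more, 21 were highest there. Of all features at 10 CPM or more 48.8% were highest in pool 3, as were 1594 of the 2276 that are at least 6000 bases long.

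Integrin receptors for this matrix were led by Itgb1, the β1 subunit, at 98.5, 104 and 110 RPKM. Itgb5 had 65.3 ± 5.13 RPKM, Itga6 36.6 ± 3.32, Itga3 12.4 and Itgav 12.1. Of 20 listed integrin genes, 9 reached 1 RPKM. Itgb4, the partner of α6 in hemidesmosomes, stood at 0.0645 RPKM and Itgb6 was listed at 0.

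The signalling lists differed in which of their members were high. In the FGF pathway, which drives fiber differentiation, the receptor genes Fgfr3 (53.3, 58.5 and 59.2 RPKM), Fgfr1 (17.3 ± 0.56) and Fgfr2 (13.0 ± 0.78) were measured in all pools and Fgfr4 was listed at 0. The FGF-induced genes Etv5 and Spry2 had 41.3 ± 4.45 and 33.8 ± 0.80 RPKM. Of the ligands, Fgf9 and Fgf8 stood at 0.0703 and 0.0246 RPKM, and Fgf1, Fgf2, Fgf3 and Fgf10 were listed at 0. In the Wnt pathway 20 of 38 members reached 1 RPKM. Its ligand genes Wnt7b (106 ± 7.58 RPKM) and Wnt7a (44.3 ± 1.38) were the highest of the ligands named here, and Ctnnb1, the β-catenin gene, had 187 RPKM. Axin2, a common target, had 2.88 RPKM and Lef1 0.280.

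In the Notch pathway the ligand gene Jag1 had 83.6, 89.5 and 98.3 RPKM, the receptor genes Notch2 5.70 ± 0.86, Notch3 5.30 and Notch1 3.04, and the target Hey1 25.7 ± 1.25. Of 19 Notch genes, 15 reached 1 RPKM and 3 reached 10. In the BMP and TGF-β list, 22 of 31 members reached 1 RPKM. Its highest members were the targets Id2 (88.1 ± 5.72 RPKM) and Id3 (31.1), the ligand gene Tgfb2 (28.9), the target Id1 (26.0) and the receptor gene Bmpr1a (24.6). The ligand gene Bmp7 had 14.2 RPKM. Among Eph receptors and ephrins, Efnb2 (53.3 ± 2.57 RPKM), Epha2 (24.5) and Efna5 (17.7), of which Epha2 is a cataract gene in humans, were highest of 18.

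Genes of division and of cell cycle exit were both present. Of 36 cell cycle genes, 35 reached 1 RPKM, with a median of 11.5 RPKM. Cyclin D2 (Ccnd2) was highest at 114, 127 and 155 RPKM, and the proliferation markers Mki67 and Top2a had 18.3 ± 0.54 and 19.2 ± 0.69 RPKM. Cdkn1c, which encodes the inhibitor p57 of differentiating fibers, had 848, 811 and 855 RPKM, far above Cdkn1b (17.4) and Cdkn1a (0.841). Cdkn1c is also imprinted, and imprinted growth genes were prominent: the noncoding RNA H19 had 1625, 1402 and 1655 RPKM and ranked 19, and Igf2 had 253 ± 23.5. Of the 30 imprinted genes listed, 20 reached 1 RPKM.

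Ribosomal protein genes took 1.51%, 1.39% and 1.36% of reads, a low share beside the crystallins. Of the 90 features of that family, 77 reached 1 RPKM, led by Rpl8 with 946 ± 51.8, and 9 had no read. The 40 ribosomal protein genes that share under 20% of their 50-base words with other transcripts had a median of 73.2 RPKM and the 46 with more had 27.8. Across these 86 genes the Spearman correlation of level with shared words was -0.195, a description across genes, and the part of shared sequence in these levels was not tested. The elongation factors Eef1a1 (1488 ± 36.2 RPKM) and Eef2 (952 ± 95.1) were among the 30 leading features.

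Mitochondrially encoded genes took 1.19%, 0.938% and 0.871% of reads, with pool 1 highest. Of these 37 features 24 had no read, and the 22 tRNA and 2 rRNA features of mitochondria all had none. Of the 13 with reads, 12 reached 1 RPKM and 10 reached 10. Their leading gene mt-Cytb, a subunit of complex III, had 3034, 2271 and 2073 RPKM. All 34 nuclear genes of oxidative phosphorylation reached 1 RPKM, with a median of 77.4, and Ndufa1 of complex I was highest at 972 ± 93.9. In glycolysis, Pkm had 603 ± 27.0 RPKM, Aldoa 218 and Ldha 121 ± 3.03, and 20 of 22 listed genes reached 1 RPKM. Gapdh, often used as a reference gene, had 11.6, 12.8 and 12.6 RPKM, with 25.2% of its words shared with other transcripts. Hsp90ab1 (1212 ± 39.6 RPKM) led the chaperones, of which 24 of 26 reached 1 RPKM. The inducible Hspa1a and Hspa1b stood at 0.0392 and 0.141 RPKM.

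In the antioxidant list, 28 of 32 members reached 1 RPKM. Gpx1 (397 ± 10.4 RPKM), Gstp1 (338) and Sod1 (206) were highest, while the metallothionein gene Mt1 had 1.49 RPKM on 8, 6 and 12 reads. Aldh1a1, a retinaldehyde dehydrogenase that is abundant in mouse ocular tissue, had 605 ± 10.4 RPKM. The ubiquitin gene Ubb had 462 ± 25.2 RPKM, and 21 of 22 ubiquitin and proteasome genes reached 1 RPKM. Of 22 immediate early genes 13 reached 1 RPKM, with a median of 1.39, Dusp1 was highest at 16.5 and Fos had 0.704.

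Families that act in other tissues were close to 0. Of 1248 olfactory receptor features, 1220 had no read, as had 311 of 330 vomeronasal receptors, 70 of 73 defensins and 469 of 472 immunoglobulin and T cell receptor segments. Of 39 Hox genes, 35 had no read. Over all 41128 listed features, 23765 had no read. An RPKM value was given for 1134 of the olfactory features and 359 of the segments, and of the 11977 features without such a value 1 had a read. As above, a listed 0 is not read as absence. Over the 3 pools together, a feature with no read is limited to 0.0910 CPM by a count of 3 reads, a limit that covers counting error only. Keratins took 0.00212% of reads and had 3 of 47 members at 1 RPKM or more, which were Krt40 (3.72 RPKM), Krt10 (3.14) and Krt18 (1.34).

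Markers of other cell types in and around the eye were mostly under 10 RPKM, with exceptions in the erythroid and periocular mesenchyme lists. All 18 endothelial markers had reads and 14 reached 1 RPKM, led by Cdh5, the cadherin of vessel walls, at 5.83, 6.82 and 7.43 RPKM. Pericyte and smooth muscle markers reached 1 RPKM in 7 of 10 genes, with Rgs5 highest at 9.09. All 15 macrophage markers had reads and 3 reached 1 RPKM, with a summed level of 12.1, 13.9 and 15.46 CPM. Globin genes were the most abundant of these: Hbb-bs had 139, 148 and 136 RPKM, and the erythroid list summed to 397, 401 and 371 CPM. Of its 14 members found, 5 reached 10 RPKM. In the list for periocular mesenchyme, 5 of 21 members reached 1 RPKM and the median was 0.141 RPKM. Pdgfra had 31.3 ± 3.27 RPKM and Col6a3 11.8, while Col1a1, Col1a2 and Col3a1 lay between 0.324 and 0.484 RPKM and Foxc2 was listed at 0. Of 17 neuron markers 1, Map2, reached 1 RPKM, of 19 corneal and surface ectoderm markers 3, of 16 muscle markers 2, of 13 liver and gut markers 1, and of 14 germ cell markers 0. Y-linked Eif2s3y (7.02 RPKM) and Ddx3y (3.39) were found in every pool beside Xist (0.603), whose gene lies inside Tsix.

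The pools were close to each other. Across all 41128 features the correlation of log2(CPM + 1) between pools was 0.998 for each of the 3 pairs, a value across features and not across samples. For the 7974 features with a mean of at least 10 CPM the median CV was 7.06%, with quartiles of 4.35% and 10.5%. The counting error of these features, the inverse root of their mean reads, had a median of 4.93%. It is an expected value per feature and not a CV over 3 pools, so the medians are not strictly alike. For the 1455 features at 100 CPM or more the median CV was 5.98%. The common biological coefficient of variation from edgeR was 7.35%. Of the 7974 features, 5736 (71.9%) had a CV under 10% and 69 (0.865%) one of 25% or more. At 100 CPM or more the narrowest were Arhgap24, a RhoGAP gene, with 109, 109 and 109 CPM (CV 0.174%), Larp4b (0.346%) and the lysosomal protease gene Ctsb (0.459%).

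**Figure D4:**
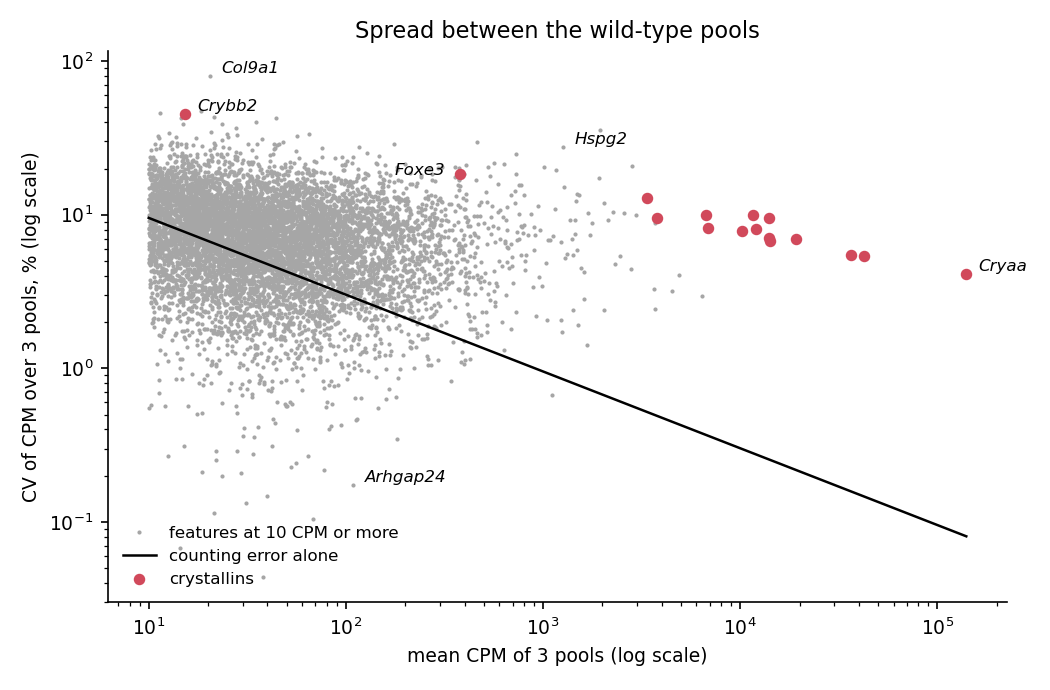
CV of CPM over the 3 pools (vertical, log scale, %) against mean CPM (horizontal, log scale) for the 7974 features at 10 CPM or more, with the CV that counting error alone would give (black line) and crystallins in red. Col9a1 has the widest CV at 80.3%, Hspg2 stands above most features of its abundance, and Cryaa lies at 4.1%.

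The wide features were not spread evenly over the pools. Of the 69 with a CV of 25% or more, 63 were highest in pool 3, 3 in pool 2 and 3 in pool 1. Of all 7974 features at 10 CPM or more, 48.8% were highest in pool 3 and 41.7% were lowest in pool 1. The 15 widest included Cbl, a ubiquitin ligase gene, at 11.4, 15.52 and 28.2 CPM and Tenm4 at 25.7, 43.6 and 63.1 CPM. In 11 of these 15 pool 1 was lowest and pool 3 highest. The others were Col9a1, Crybb2 and Fbn2, highest in pool 2, and Lbh at 34.0, 17.4 and 19.3 CPM. Their median length was 7620 bases, against 4238 for all features at 10 CPM or more. Across the 7942 such features with an annotated sequence the Spearman correlation of gene length with the log2 ratio of pool 3 to pool 1 was 0.496, and with that of pool 2 to pool 1 it was 0.382. For features of under 1000 bases the median ratio of pool 3 to pool 1 was 0.866 (214 features), and for those of 6000 bases and over it was 1.14 (2265 features). Cryaa is 1186 bases long and lowest in pool 3, and Hspg2 is 14307 bases long and highest there. Length moved with the pool differences across all these features. No correlation was computed within crystallin or capsule genes, and the part of length in their pool differences was not tested.

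Pool 2 held more features that were high in a single pool than the other pools did. A search made after the values were seen counted features with at least 8 reads in a pool and at least 3 times the CPM of both other pools (with 0.05 CPM added): it found 51 in pool 2, 10 in pool 1 and 7 in pool 3. The search examined 12271, 12304 and 12085 features in pools 1, 2 and 3. Of the 51, 7 are on the retina or pigment cell lists. Those lists hold 24 and 12 genes, of which 21 and 8 had a read. The genes named next were picked from the 51 for their known roles after their values were seen. Among them were retinal progenitor factors: Lhx2 had 3, 44 and 1 reads in pools 1, 2 and 3, Six6 1, 24 and 1, and Rax 0, 10 and 0. Pigment cell genes were also there, with Pmel at 10, 59 and 15 reads, Dct at 4, 19 and 1, and Tyrp1 at 3, 17 and 3. The set also held matrix genes of the ciliary margin and vitreous, with Col2a1 at 12, 100 and 8 reads and Optc, the opticin gene, at 5, 54 and 3. Crhbp had 2, 55 and 0 reads, Tbx20 0, 29 and 1, Otx1 4, 66 and 8, Zic1 13, 71 and 15, and Fgf15 4, 36 and 1.

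Col9a1, the feature with the widest CV (80.3%) at 10 CPM or more, had 154, 445 and 87 reads, and Fbn2 153, 360 and 198. Crybb2, Gja1 and Wfdc1 were also highest in pool 2. The 51 features summed to 20.03, 138 and 18.9 CPM, so they are a very small part of the library. Of all features with a read, 27.3% were highest in pool 2. Of the 24 retina markers, 21 had a read, 11 of them highest in pool 2, and the list summed to 17.6, 26.9 and 14.5 CPM. Opn1mw, Neurod1 and Ptf1a were at 0, and the photoreceptor genes Nrl, Crx and Rcvrn had at most 1 read in any pool. Of the 12 pigment cell markers 8 had a read, 6 of them highest in pool 2, Rpe65, Mlana, Rgr and Lrat were at 0, and the list summed to 27.6, 35.5 and 30.8 CPM, most of it from Mitf at 293, 296 and 282 reads. Whether tissue beside the lens gave these reads was not tested.

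**Figure D5:**
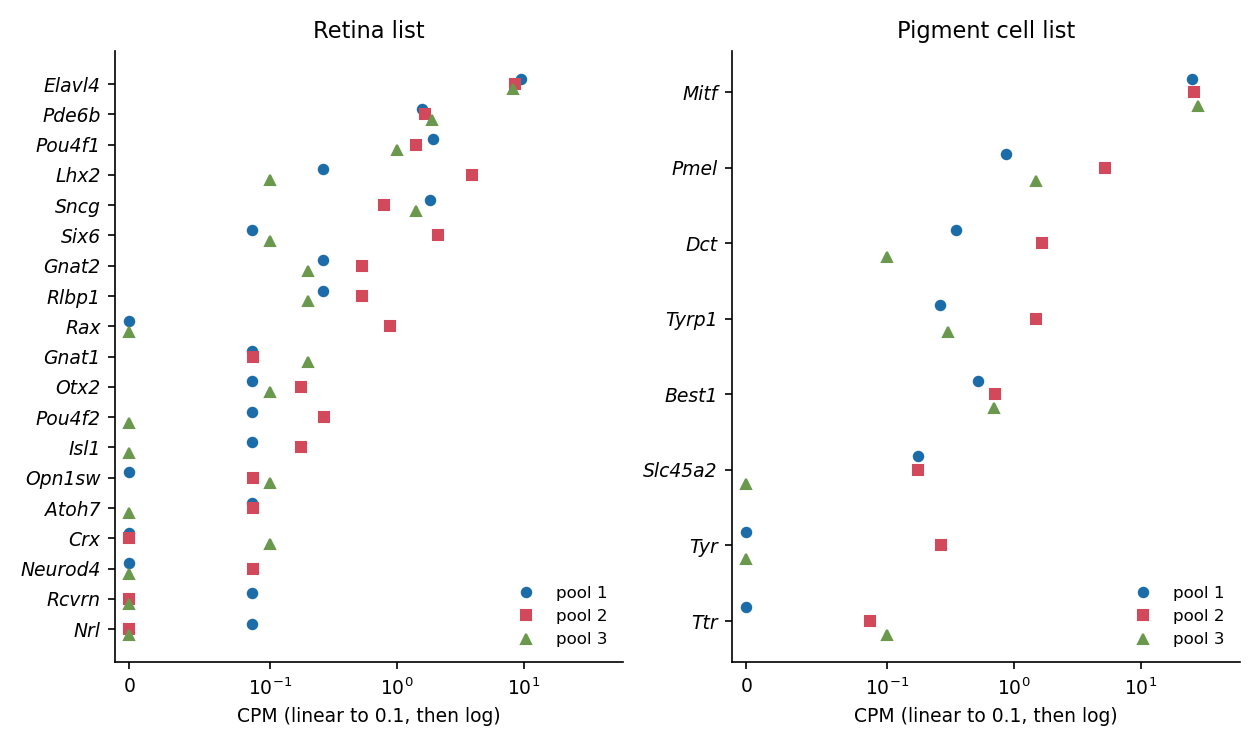
CPM (horizontal, linear up to 0.1 and log above) in pools 1 to 3 of 19 retina markers (left) and the 8 pigment cell markers (right) that had a read. Lhx2, Six6, Rax, Pmel, Dct and Tyrp1 lie to the right in pool 2 (red squares), while Elavl4, Pde6b and Mitf are alike in all pools.

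Ranks by CPM and by RPKM shared 24 of their 30 leading features. By CPM crystallins filled the first 12 places, followed by Capn3, Bfsp1 and Mip, with Crygn at rank 16 and Cryab at rank 20. By CPM the list added long mRNAs, among them Sptan1, Sptbn1, Nid1, Col4a2, Tdrd7 and Scd2, the last a fatty acid desaturase gene. Among features in the first 200 of either ranking, the cytolinker gene Dst lost most places, from rank 138 by CPM to 2747 by RPKM with 36346 bases, followed by Lrp1 and Son. The gene that gained most was 2010107E04Rik, from 2172 to 138, with 365 bases. Of gene models without a proper name, Gm26917 (chromosome 17, 39843013 to 39846341) was highest at 861, 989 and 878 RPKM. RefSeq places Rn18s-rs5, a pseudogene of 18S ribosomal RNA by its symbol, 12 bases beyond its end. The mRNA was selected by poly(A) before sequencing, and whether reads of ribosomal RNA enter this feature was not tested.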

How the data were processed

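RNA of pooled lenses was selected by poly(A), made into libraries with an unstranded kit and read as single-end reads of 50 bases, per the labels' protocols. The authors deposited CPM, each library's counts scaled to a common total, for 41128 features and RPKM, the same divided by gene length, for 29151 of them. The submitters' processing notes name edgeR and GRCm38. The aligner and counter: not given in the sources used here. Whole reads were recovered from the CPM steps: 100% of values lay within 0.02 reads of a whole number. Gene models came from GENCODE M21, to which 37667 of 38391 Ensembl identifiers matched, and promoters from RefSeq.

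Means, SD, CV and ranks were computed in Python 3.11.15 with pandas 2.3.3 and SciPy 1.17.1, and the biological coefficient of variation with edgeR 4.0.16 in R 4.3.3, checked on simulated data. Counting error is that of the reads alone. Only the 3 wild-type libraries were used, with no comparison between groups and no test. The gene groups are 43 lists of 789 symbols, of which 7 were not listed, and 22 families. Named are the 6 markers, the 30 leading features by RPKM and by CPM, up to 6 highest and 3 lowest members of each list, the lens regulators, the 15 widest and 10 narrowest features, and the largest rank shifts. Other members were named for their role, with their values known, and the members and lists were chosen with earlier results of these data known. A few genes that the rule names are not reported here. The alternatives were other scalings, filters, pseudocounts (1 and 0.1 CPM) and denominators, thinned reads, the median of the pools, and each pool left out.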

Additional observations from a re-analysis of the deposited data

How the results depend on the processing

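Every alternative to the ranking by mean RPKM left crystallins in its first 14 places and kept at least 29 of its 30 leading features; these were RPKM rescaled to the same sum in each pool (as in TPM), TMM scaling, crystallins out of the denominator, the median of the pools and each pool left out. Over these, Prox1 ranked 192 to 217 and Pax6 1688 to 1774. With RPKM rescaled, 5903 features reached 10, 718 reached 100 and 54 reached 1000, since the deposited RPKM of a pool sums to less. With crystallins out of the denominator, ribosomal protein genes took 2.14% of reads and 5.33% of the summed RPKM, mitochondrial genes 1.51% and 4.86%, and collagens 0.782% and 0.363%. The median CV was 8.73% for features at 1 CPM or more and 13.0% for all above 0, where fewer reads stand behind each value. With 1 pool left out it ran from 5.20% (without pool 3) to 7.17% (without pool 2), and the median SD of log2(CPM + 1) from 0.073 to 0.10. The share of reads taken by crystallins ran from 32.9% to 34.5% with 1 pool left out. The count of features highest in a single pool was examined under thresholds chosen after seeing the data: at 2 times the other pools it was 47, 106 and 26 for pools 1, 2 and 3, and at 5 reads 23, 83 and 19. At 4 times it was 1, 37 and 1, and at 15 reads 1, 34 and 1. A minimum length, and a level to be met in all pools, were not run for features at 0. Depth limits levels under the 3-read floor of 0.260 to 0.299 CPM in 1 library. No paired analysis was possible because only 1 group was described.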

Other observations

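Human cataract genes, a list that overlaps the crystallins and several groups described above, were mostly well expressed: of 33 mouse counterparts, 30 reached 1 RPKM, 24 reached 10 and 13 reached 100. Genes that carry the name crystallin but are not of the α, β or γ families ranged from Cryz, a quinone reductase, at 7.87 RPKM, close to the 7.63 RPKM of Crybb2, to Crym, a thyroid hormone binding protein, at 0.109 RPKM. Among reference genes, Actb stood at 532 RPKM and Tbp, which encodes the TATA-binding protein, at 1.09 RPKM. Cd24a, which encodes a small surface glycoprotein, had 1534 RPKM and ranked 20.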
